A study of Cenchrus americanus with 9 samples.

Results

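Primary root tips of pearl millet stood apart from both crown root tips and lateral roots in 50 of the 19754 genes of the deposited table. Of these genes, 18 were higher in primary roots and 32 were lower. A gene was taken when its mean normalised count over the 9 libraries was at least 100, when it had a value above 0 in each root type, and when the 3 primary root libraries lay on 1 side of the other 6 libraries with a gap of at least 25%. The gap was measured as a ratio, and the gap ratio is the lowest library of the higher side divided by the highest library of the lower side. On the higher side, even the weakest primary root library thus exceeded the strongest lateral or crown root library by at least 25%. The genes were chosen by the values of all 9 libraries, so the levels of primary roots against the others are a description and carry no test.

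The libraries came from the reference genotype Tift23DB of pearl millet (Cenchrus americanus), sampled after 15 days in rhizotrons (flat growth boxes with a plexiglass face). Primary root tips and crown root tips were taken as the last 5 cm of the root, and lateral roots were taken from primary roots, with no length given. Genotype, age and growth conditions were thus shared by all samples, and no treatment is named. Each of the 3 libraries of a root type was made from the roots of 3 plants pooled before RNA extraction, so the spread between libraries is that between pools.

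In cereals the primary root is formed in the embryo and is the first root to emerge. Crown roots arise later from nodes of the stem, and lateral roots arise within existing roots. In bulk RNA of this kind, fewer cells of a type and less RNA per cell cannot be told apart. The genes are named by identifier only, and no annotation, function, position or sequence was used here. For the same reason the tissue labels could not be checked against marker genes. None of the 4 candidate genes that the study names (Pgl_GLEAN_10002101, Pgl_GLEAN_10014595, Pgl_GLEAN_10030409 and Pgl_GLEAN_10030410) was among the 50.

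In each library the deposited values were whole multiples of 1 step (within 0.1 of a step). These multiples, here called recovered counts, are not known to equal reads. Totals of recovered counts were 39739052 to 58752339 in primary roots, 45602970 to 64062081 in lateral roots and 49026933 to 55457911 in crown roots. On the deposited scale the totals were 47180332 to 50460211 in primary roots, 48396078 to 49845075 in lateral roots and 52916036 to 57967565 in crown roots. Every one of the 50 genes had a value above 0 in all 9 libraries, and their lowest recovered count was 15. Gene length did not enter the values, so levels are compared between libraries and not between genes.

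Genes set apart in primary roots were few beside those set apart in the other root types. Under the same rule, 18 genes were higher in primary roots, against 1205 in lateral roots and 496 in crown roots. On the lower side there were 32 genes in primary roots, 534 in lateral roots and 566 in crown roots. Of the 16011 genes that met the conditions on mean and detection, these were 0.112% higher and 0.2% lower in primary roots, 7.53% higher and 3.34% lower in lateral roots, and 3.1% higher and 3.54% lower in crown roots. Over both sides, lateral roots had 34.8 times and crown roots 21.2 times as many such genes as primary roots. The ratios changed when a library was left out. The counts can then only grow, except through the condition on the mean, since fewer libraries must be apart. With a library left out the ratios ran from 10.5 to 32.9 for lateral roots and from 7.85 to 24.1 for crown roots. Both were lowest without primary root replicate 3 (182 genes in primary roots, 1908 in lateral roots and 1428 in crown roots). These counts come from the same 9 libraries and were not tested against each other.

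Primary roots had the fewest such genes at every gap ratio tried. With libraries required only not to overlap, 319 genes were higher (1.99%) and 352 were lower (2.2%) in primary roots, against 2440 (15.2%) and 1847 (11.5%) in lateral roots and 1981 (12.4%) and 1423 (8.89%) in crown roots. At a gap ratio of 1.5 primary roots had 2 higher and 14 lower genes, lateral roots had 772 and 231, and crown roots had 174 and 341. At a gap ratio of 2 no gene remained on the higher side in primary roots and 7 remained on the lower side, against 391 and 75 in lateral roots and 46 and 182 in crown roots. A gap ratio of 3 left 1 gene in primary roots, on the lower side.

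**Figure D1:**
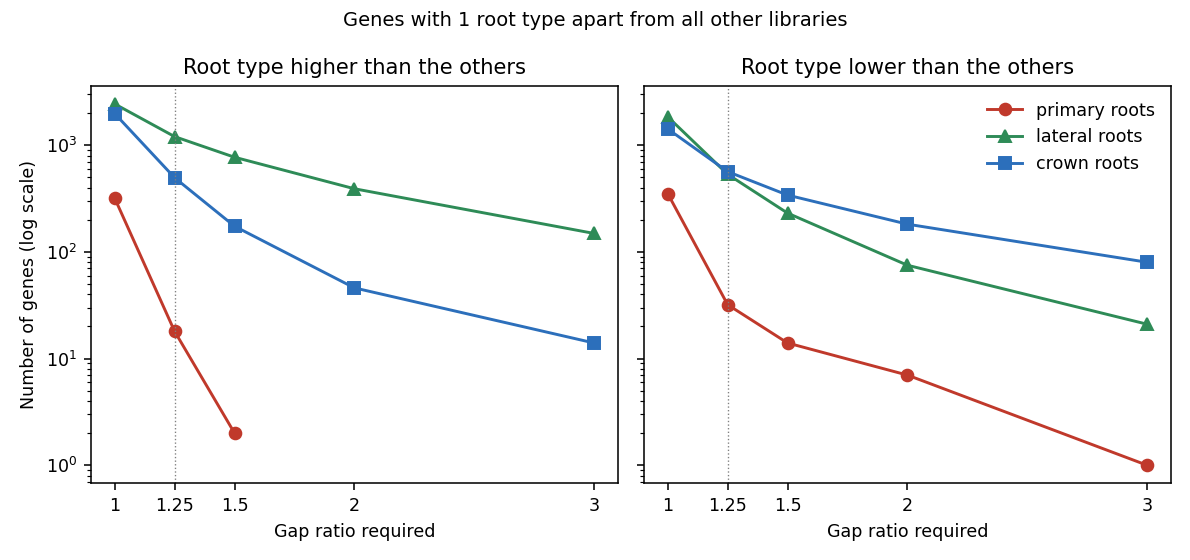
Number of genes (log scale) against the gap ratio required, for primary, lateral and crown roots, with the root type higher in the left panel and lower in the right panel. The dotted line marks the gap of 25%, where primary roots had 18 higher and 32 lower genes, and points at 0 (primary roots higher at ratios of 2 and 3) are not drawn.

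The division between the sides depended on the scale. The condition on the mean also bears on it, being easier to meet on the lower side, where 6 libraries are high. On the deposited scale 36.0% of the 50 genes were on the higher side. With all libraries scaled to equal totals there were 40 higher and 23 lower genes, 63.5% on the higher side, and with quantile normalisation there were 21 and 38, 35.6% on the higher side. Of the original genes, 13 of 18 on the higher side and 20 of 32 on the lower side met the rule on both other scales as well. Among the genes listed by value below, those that did not were Pgl_GLEAN_10023200, Pgl_GLEAN_10004198, Pgl_GLEAN_10013313 and Pgl_GLEAN_10000065 on the higher side. On the lower side they were Pgl_GLEAN_10035560, Pgl_GLEAN_10031369, Pgl_GLEAN_10003037 and Pgl_GLEAN_10029612. The excess of lower over higher genes thus turned round with equal totals. On the deposited scale it also rested on lateral root replicate 1, without which there were 41 genes on each side, and it was small where libraries were required only not to overlap (47.5% on the higher side).

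On the higher side, primary roots averaged 1.55 to 3.19 times the mean of the other 6 libraries, with a median of 2.04, and 10 of the 18 genes reached 2 times. Gap ratios ran up to 1.70, and 16 of the 18 were under 1.5. Most of these genes had low normalised counts, since 12 of 18 (66.7%) had a mean under 500, against 31.4% of the 16011 genes that met the conditions. Their mean over the 9 libraries had a median of 246 normalised counts.

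Values of single libraries are normalised counts, in the order of replicates 1, 2 and 3. The widest gap on this side was that of Pgl_GLEAN_10028705. Pgl_GLEAN_10028705 had 5204, 2027 and 2248 in primary roots, against 846, 845 and 1190.4 in lateral roots and 1154, 1142 and 761 in crown roots. The primary root mean was 3.19 times that of the other libraries, primary root replicate 1 was over 2 times either other primary root library, and the lateral and crown root libraries overlapped. Pgl_GLEAN_10032311 had 7200.3, 7943 and 5292 in primary roots, against 2949, 3144 and 3569 in lateral roots and 1499, 3549.9 and 2451 in crown roots. This gene had the highest mean of the side, 4178 normalised counts, and crown root replicate 1 was its lowest library. Pgl_GLEAN_10001609 had 1765, 1653 and 1639 in primary roots, against 895, 769 and 995 in lateral roots and 1044, 942 and 1035 in crown roots. Here the replicates were tight, with a mean of 1686 ± 68.8 in primary roots, against 886 ± 113 in lateral roots and 1007 ± 56.8 in crown roots (SD, n = 3 each). The primary root mean was 1.9 times that of lateral roots and 1.67 times that of crown roots.

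In several genes the lateral and crown root libraries were interleaved. Pgl_GLEAN_10020032 had 337, 327 and 340.3 in primary roots, against 185, 193 and 228 in lateral roots and 178, 210.01 and 191 in crown roots. Its primary root libraries were close to one another. Pgl_GLEAN_10026744 had 269.8, 237 and 219.7 in primary roots, against 112, 84.8 and 119 in lateral roots and 88.8, 117 and 150.03 in crown roots. Pgl_GLEAN_10007219 had 293, 306 and 281 in primary roots, against 113, 182 and 196 in lateral roots and 143, 116 and 117 in crown roots. In Pgl_GLEAN_10026744 lateral and crown roots overlapped (105 ± 17.8 and 119 ± 30.6, SD, n = 3 each), while in Pgl_GLEAN_10007219 lateral roots (164 ± 44.8) spread over a wider range than crown roots (125 ± 15.6). Pgl_GLEAN_10015598 had 293, 263 and 371 in primary roots, against 187, 142 and 139 in lateral roots and 143, 173 and 78.8 in crown roots. The lowest of its libraries was crown root replicate 3, and the other 5 lateral and crown root libraries lay close together.

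Other genes differed in which of the other root types came nearest to primary roots. Pgl_GLEAN_10018257 had 804, 948 and 676 in primary roots, against 391.96, 394 and 416 in lateral roots and 259, 489 and 417 in crown roots. Pgl_GLEAN_10032484 had 832, 734 and 952 in primary roots, against 540.3, 440.4 and 372 in lateral roots and 283, 472 and 283 in crown roots. Pgl_GLEAN_10015473 had 930.1, 637 and 663 in primary roots, against 315, 382 and 426 in lateral roots and 291, 415 and 492 in crown roots. In Pgl_GLEAN_10018257 and Pgl_GLEAN_10015473 crown root replicate 1 was the lowest library, and in Pgl_GLEAN_10032484 lateral root replicate 1 came nearest to primary roots. The primary root mean was 2.05, 2.11 and 1.92 times the mean of the other libraries in these 3 genes, in that order. Pgl_GLEAN_10023200 had 316, 368 and 312 in primary roots, against 206, 199.97 and 193 in lateral roots and 228, 233 and 227 in crown roots. This gene had the smallest excess of the side, 1.55-fold, but its lateral and crown root libraries were tight and did not overlap, with lateral roots lower. Pgl_GLEAN_10001225 had 277, 240.1 and 236 in primary roots, against 138, 184 and 161 in lateral roots and 112, 121 and 139 in crown roots. In that gene lateral roots lay mostly above crown roots, with an overlap at the lower end.

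Pgl_GLEAN_10024026 was unlike the rest of the higher side. Pgl_GLEAN_10024026 had 440.2, 663 and 594 in primary roots, against 344, 264 and 306 in lateral roots and 21.9, 47.7 and 126 in crown roots. The primary root mean was 1.86 times that of lateral roots and 8.66 times that of crown roots, the largest excess over crown roots among the 18. The 3 root types did not overlap with one another in any pair, with primary roots highest, lateral roots next and crown roots lowest.

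Just inside the threshold were Pgl_GLEAN_10004198, Pgl_GLEAN_10013313 and Pgl_GLEAN_10000065, with gap ratios of 1.26, 1.256 and 1.251. Pgl_GLEAN_10004198 had 247, 236 and 221 in primary roots, against 175, 151 and 136 in lateral roots and 147, 74.1 and 63.7 in crown roots. Pgl_GLEAN_10013313 had 256, 319 and 231 in primary roots, against 152, 113 and 184 in lateral roots and 176, 171 and 158 in crown roots. Pgl_GLEAN_10000065 had 319, 334 and 343 in primary roots, against 171, 233 and 255 in lateral roots and 197, 231 and 164 in crown roots. In these genes the nearest library was a lateral root library each time. Just outside were Pgl_GLEAN_10022841, Pgl_GLEAN_10023996 and Pgl_GLEAN_10030797, with gap ratios of 1.248, 1.241 and 1.237. Pgl_GLEAN_10022841 had 1692, 1839 and 1582 in primary roots, against 1268, 1005 and 1126 in lateral roots and 1113, 1028 and 1236 in crown roots. Pgl_GLEAN_10023996 had 2349, 2213 and 2366 in primary roots, against 1025, 1314 and 1748 in lateral roots and 1597, 1784 and 1543 in crown roots. Pgl_GLEAN_10030797 had 1249, 1167 and 1147 in primary roots, against 444, 797 and 875 in lateral roots and 746, 927 and 766 in crown roots. These genes had means above those of the 3 just inside. The 2 genes of the higher side not listed by value, Pgl_GLEAN_10036696 and Pgl_GLEAN_10027005, had gap ratios of 1.278 and 1.274 and excesses of 2.12 and 2.08 times.

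**Figure D2:**
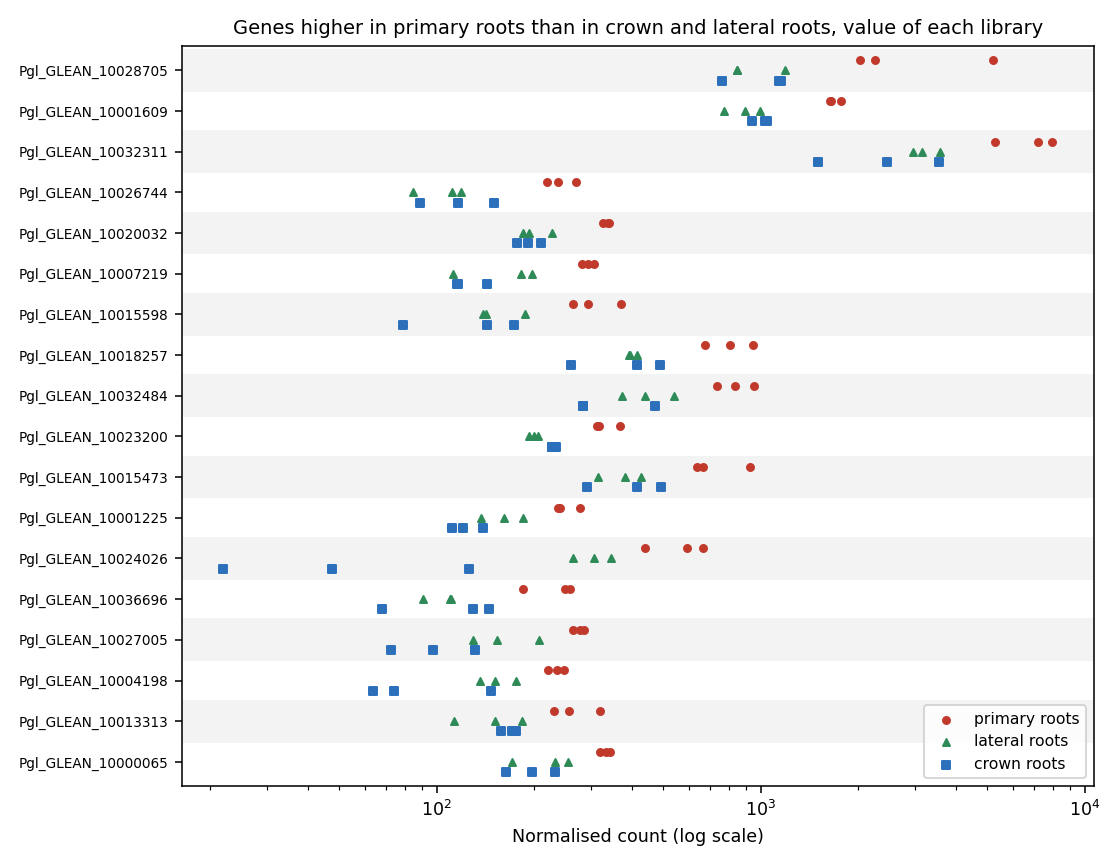
Normalised count (log scale) of each of the 9 libraries for the 18 genes higher in primary roots, ordered from the largest gap ratio at the top to the smallest. In each row the 3 primary root libraries lie to the right of all 6 others, and in Pgl_GLEAN_10024026 the crown root libraries, at 21.9 to 126, lie far to the left of the lateral root libraries.

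On the lower side, the mean of the lateral and crown root libraries was 1.46 to 7.38 times that of primary roots, with a median of 2.44, and 23 of 32 genes reached 2 times. Gap ratios ran from 1.254 to 3.24, and 7 genes had a ratio of at least 2, a size that no gene of the higher side reached. These 7 genes were Pgl_GLEAN_10030508, Pgl_GLEAN_10033275, Pgl_GLEAN_10004523, Pgl_GLEAN_10025536, Pgl_GLEAN_10012559, Pgl_GLEAN_10001645 and Pgl_GLEAN_10001739. Their primary root means ran from 29.0 to 148 normalised counts. The rule did not treat the sides alike. A mean of at least 100 is carried by 6 high libraries on the lower side but by only 3 on the higher side. Wide gaps at low levels are therefore easier to admit on the lower side, and no difference between the sides is read from these ratios.

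Pgl_GLEAN_10030508 had the widest gap of all 50 genes. Pgl_GLEAN_10030508 had 12.7, 42.5 and 31.7 in primary roots, against 161, 138 and 161 in lateral roots and 375, 192 and 256 in crown roots. Its primary root mean, 29 ± 15.1, stood against 153 ± 13.6 in lateral roots and 274 ± 93.1 in crown roots (SD, n = 3 each). The lateral root libraries were close to one another and all below the crown root libraries. Pgl_GLEAN_10033275 had 34.6, 51.7 and 55.9 in primary roots, against 344, 403 and 274 in lateral roots and 166, 188 and 259 in crown roots. The order of the other root types was the opposite in this gene, with every lateral root library above every crown root library. Pgl_GLEAN_10004523 had 47.2, 27.4 and 27.9 in primary roots, against 133, 206 and 237 in lateral roots and 178, 150.2 and 171 in crown roots. Here lateral and crown roots overlapped, and the primary root mean was 0.178 times that of lateral roots and 0.206 times that of crown roots.

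The other 4 genes with a ratio of at least 2 covered a range of levels. Pgl_GLEAN_10025536 had 41.3, 50.7 and 43.2 in primary roots, against 149, 124 and 126 in lateral roots and 239, 156 and 150.03 in crown roots. Pgl_GLEAN_10012559 had 164, 135 and 145 in primary roots, against 401, 1008 and 622 in lateral roots and 809, 461 and 603 in crown roots. Pgl_GLEAN_10001645 had 101, 126 and 128 in primary roots, against 376, 492 and 491 in lateral roots and 496, 308 and 321 in crown roots. In Pgl_GLEAN_10012559 the highest library was lateral root replicate 2, and in Pgl_GLEAN_10025536 and Pgl_GLEAN_10001645 it was crown root replicate 1. Pgl_GLEAN_10001739 had 65.8, 129.7 and 72.4 in primary roots, against 519.7, 693 and 844 in lateral roots and 272, 395 and 533 in crown roots. Its primary root replicate 2 was the highest of the primary root libraries and still lay well below the lowest crown root library.

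A set of genes was lowest in primary roots, with crown roots next and lateral roots highest. Pgl_GLEAN_10003659 had 460.4, 537 and 472 in primary roots, against 1185, 2072 and 2459 in lateral roots and 1084, 901 and 1033 in crown roots. Pgl_GLEAN_10019078 had 312, 599 and 437 in primary roots, against 2456, 1560.04 and 1546 in lateral roots and 1020.2, 987 and 999 in crown roots. In both genes the 3 root types did not overlap with one another in any pair. Primary roots were at 0.257 of the lateral root mean and 0.487 of the crown root mean in Pgl_GLEAN_10003659, and at 0.242 and 0.448 in Pgl_GLEAN_10019078. Pgl_GLEAN_10035560 had 817, 1011 and 954 in primary roots, against 2729, 5128 and 2778 in lateral roots and 2162, 1364 and 1314 in crown roots. Pgl_GLEAN_10031369 had 1481, 1106 and 1403 in primary roots, against 3158, 8297 and 5501 in lateral roots and 3879, 2156 and 1875 in crown roots. Pgl_GLEAN_10035560 had lateral roots apart from crown roots, whereas in Pgl_GLEAN_10031369 crown root replicate 1 lay within the range of lateral roots.

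The remaining genes among the 12 with the widest gaps had lateral and crown root libraries that overlapped. Pgl_GLEAN_10013955 had 256, 189 and 250.2 in primary roots, against 429.9, 762 and 705 in lateral roots and 611, 524 and 459.8 in crown roots. Pgl_GLEAN_10011742 had 116, 119.5 and 132 in primary roots, against 221, 241 and 225 in lateral roots and 332, 227 and 233 in crown roots. Pgl_GLEAN_10024644 had 75, 47.6 and 25.4 in primary roots, against 123, 129.9 and 149 in lateral roots and 291, 149 and 134 in crown roots. In Pgl_GLEAN_10011742 and Pgl_GLEAN_10024644 crown root replicate 1 stood above the other 5 lateral and crown root libraries, which were close together. The primary root libraries of Pgl_GLEAN_10024644 were spread widely among themselves, with recovered counts of 89, 47 and 20.

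Pgl_GLEAN_10031369 was 1 of the 3 genes with the highest means on this side, and the other two differed less between primary roots and the rest. Pgl_GLEAN_10020994 had 2883, 2730.4 and 2670.4 in primary roots, against 5023, 4571 and 4257 in lateral roots and 5629, 5207 and 4505 in crown roots. The primary root mean was 2761 ± 109.6, against 4617 ± 385 in lateral roots and 5114 ± 568 in crown roots (SD, n = 3 each). Pgl_GLEAN_10038325 had 1884, 1735 and 1493 in primary roots, against 2526, 3297 and 3794 in lateral roots and 3156, 3868 and 2966 in crown roots. In both genes the lateral and crown root libraries overlapped, and primary roots were at 0.568 and 0.521 of the mean of the other libraries.

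Near the threshold on this side, the genes just inside besides Pgl_GLEAN_10031369 were Pgl_GLEAN_10003037 and Pgl_GLEAN_10029612, with gap ratios of 1.273 and 1.254. Pgl_GLEAN_10003037 had 743, 730.5 and 692 in primary roots, against 1193, 1171 and 1229.9 in lateral roots and 1249, 946 and 1112 in crown roots. Pgl_GLEAN_10029612 had 1819, 1619 and 1704 in primary roots, against 2481, 2281 and 2500.3 in lateral roots and 2570.3, 2593 and 2564 in crown roots. Pgl_GLEAN_10029612 had every lateral root library below every crown root library and the smallest difference of all 32, with the other libraries at 1.46 times primary roots. Just outside were Pgl_GLEAN_10023582, Pgl_GLEAN_10024151 and Pgl_GLEAN_10018992, the first with a gap just under 25% and the others with a gap ratio of 1.249. Pgl_GLEAN_10023582 had 150.1, 173 and 226 in primary roots, against 286, 282 and 290.1 in lateral roots and 456, 429 and 358 in crown roots. Pgl_GLEAN_10024151 had 1969, 1969 and 2077 in primary roots, against 2957, 3483 and 2733 in lateral roots and 3193, 2595 and 2718 in crown roots. Pgl_GLEAN_10018992 had 69.1, 34.5 and 71.1 in primary roots, against 88.8, 110.5 and 119.6 in lateral roots and 224, 134 and 105 in crown roots. In Pgl_GLEAN_10023582 crown roots lay above lateral roots, while in the others they overlapped. The 14 genes of the lower side not listed by value had gap ratios from 1.29 to 1.63, and the other libraries were at 1.73 to 3.19 times primary roots.

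**Figure D3:**
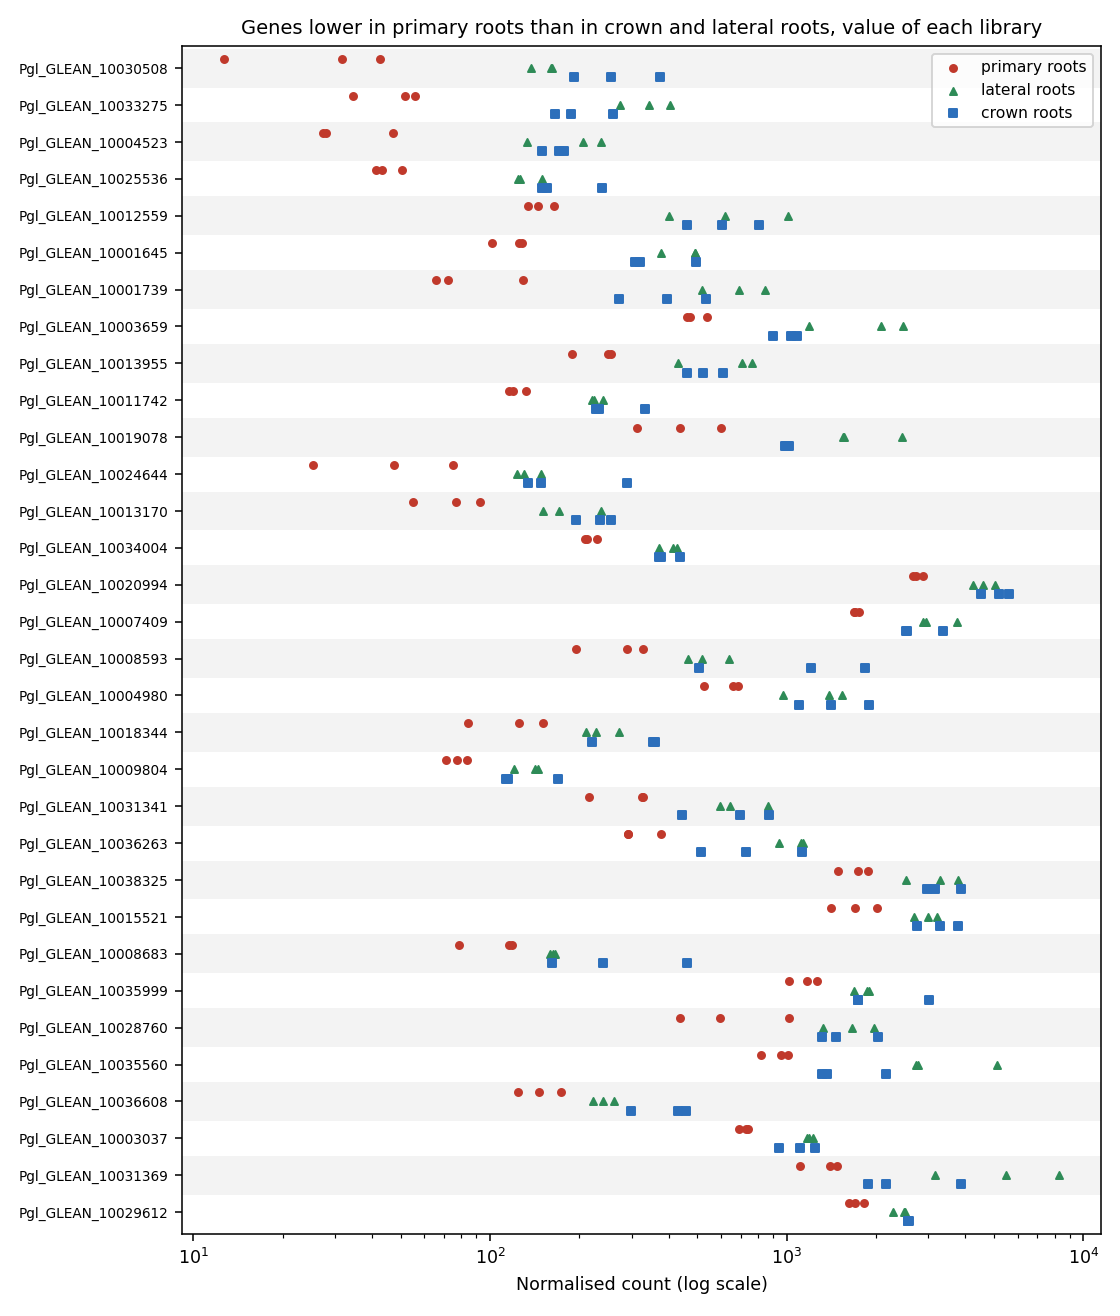
Normalised count (log scale) of each of the 9 libraries for the 32 genes lower in primary roots, ordered from the largest gap ratio at the top to the smallest. In each row the 3 primary root libraries lie to the left of all 6 others, and the distance is greatest in Pgl_GLEAN_10030508, where primary roots were at 12.7 to 42.5.

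The fit of all genes gave each of the 2 differences of primary roots with its own error. It used limma on log2(normalised count + 1), with the thresholds of the study. A call needed an adjusted p under 0.01 and at least 1 log2 unit of change. Since the rule chose the genes on these differences, the calls are descriptions and nothing is read from them. Both differences also share the primary root libraries. Against lateral roots, 1 of the 18 genes of the higher side and 13 of the 32 of the lower side passed, beside 1.08% and 3.24% of all 19754 genes in these directions. Against crown roots, 2 of 18 and 9 of 32 passed, beside 1.18% and 0.4% of all genes. With voom, which runs limma on recovered counts weighted by their precision, 2 of 18 and 12 of 32 passed against lateral roots, beside 0.856% and 3.82% of all genes, and 1 of 18 and 1 of 32 against crown roots, beside 0.481% and 0.314%.

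The largest log2 differences on the lower side were those of Pgl_GLEAN_10001739 from lateral roots and of Pgl_GLEAN_10030508 from crown roots. Pgl_GLEAN_10030508 was at -2.52 against lateral roots and -3.30 against crown roots (standard error 0.43 for both). Pgl_GLEAN_10001739 was at -2.97 and -2.16 (standard error 0.33). On the higher side Pgl_GLEAN_10028705 was at 1.60 and 1.52 (standard error 0.33), and Pgl_GLEAN_10024026 at 0.88 and 3.42 (standard error 0.49). Over the higher side the median was 0.89 against lateral roots and 1.08 against crown roots. Over the lower side the median was -1.29 and -1.21, beside 0.01 and 0.00 over all genes that met the conditions.

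**Figure D4:**
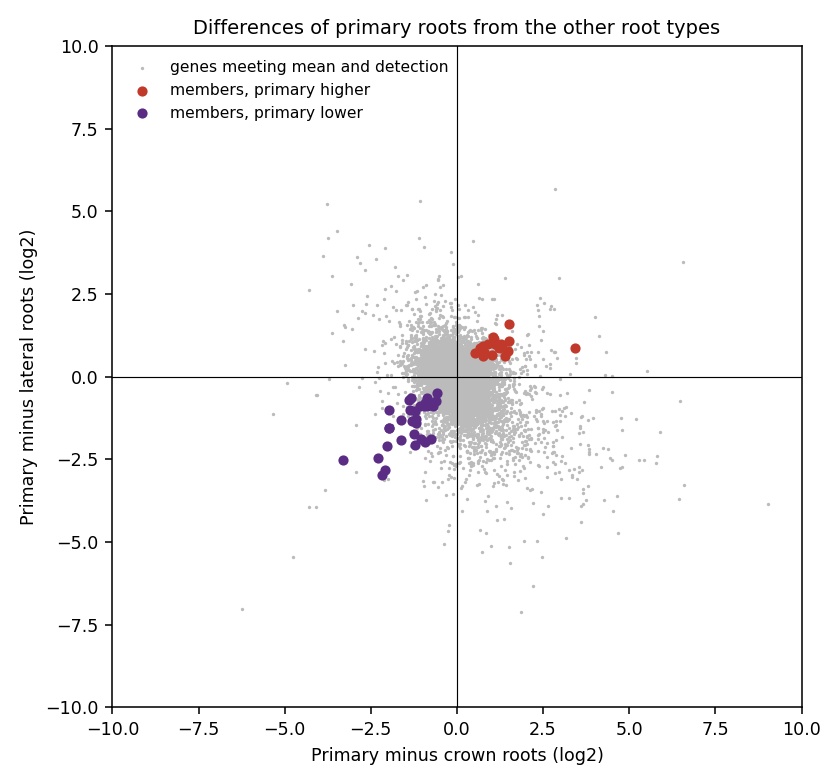
Log2 difference of primary minus crown roots (x axis) and of primary minus lateral roots (y axis) for the 16011 genes that met the conditions on mean and detection (grey), with the 18 genes of the higher side in red and the 32 of the lower side in purple. The chosen genes lie in the quadrants where both differences have the same sign, as the rule requires. Grey genes around them or farther out in those quadrants had libraries that overlapped or came closer than the gap required.

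The difference between lateral and crown roots is not 1 that the rule set, but the rule read the values of both root types. It favours genes in which they are close, since the gap is measured to the nearest of their libraries. The differences and the calls of the same fit are therefore descriptions too, and the shares over all genes are given with nothing read from them. Of the 50 genes, 2 passed the thresholds, 1 on each side and both higher in lateral roots, beside 13.2% of all 19754 genes, 8.38% higher and 4.84% lower in lateral roots. With voom 1 gene of each side passed, beside 12.1% of all genes, 7.64% higher and 4.51% lower. None was called lower in lateral roots with limma or with voom, and none had an unadjusted p under 0.05 with a log2 fold change of -1 or less with either tool. With limma no gene reached -1 whatever its p, the lowest being -0.20 on the higher side and -0.95 on the lower side. The limma difference was negative in 7 of 18 and 15 of 32 genes and positive in 11 and 17. Higher in lateral roots at that unadjusted threshold, with a log2 fold change of at least 1, were 1 gene of the higher and 2 of the lower side, with both tools. The libraries of lateral and crown roots did not overlap in 2 of 18 genes of the higher side and 8 of 32 of the lower side (25.0%), beside 45.1% of the genes that met the conditions. The median log2 difference was 0.12 on the higher side and 0.04 on the lower side, beside -0.01 over those genes.

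Pgl_GLEAN_10024026 was 2.54 log2 units higher in lateral than in crown roots (standard error 0.49, limma) and past the thresholds. All 3 lateral root libraries, 344, 264 and 306, were above all 3 crown root libraries, 21.9, 47.7 and 126. It passed in 8 of the 9 alternatives that keep all libraries and in 5 of the 9 with a library left out, and the gene no longer passed without crown root replicate 2 or without any 1 of the lateral root replicates 1, 2 and 3.

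Pgl_GLEAN_10035560 was 1.11 log2 units higher in lateral than in crown roots (standard error 0.26, limma) and past the thresholds. The lateral root libraries were at 2729, 5128 and 2778, above the crown root libraries at 2162, 1364 and 1314. It passed in 6 of the 9 alternatives that keep all libraries and in 1 of the 9 fits with a library left out, that without crown root replicate 1. This gene was also among those that did not keep to the rule on every scale. The next largest positive differences were those of Pgl_GLEAN_10003659 at 0.86, Pgl_GLEAN_10019078 at 0.85 and Pgl_GLEAN_10031369 at 1.07 on the log2 scale. In the other direction, Pgl_GLEAN_10030508 was at -0.78, with every crown root library above every lateral root library. None of these passed the thresholds in the fit as reported, but Pgl_GLEAN_10003659 passed with equal totals, at 1.03. Equal totals was not the only setting that added a call. Other genes passed in some fits with a library left out, and only their counts are given, further below.

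**Figure D5:**
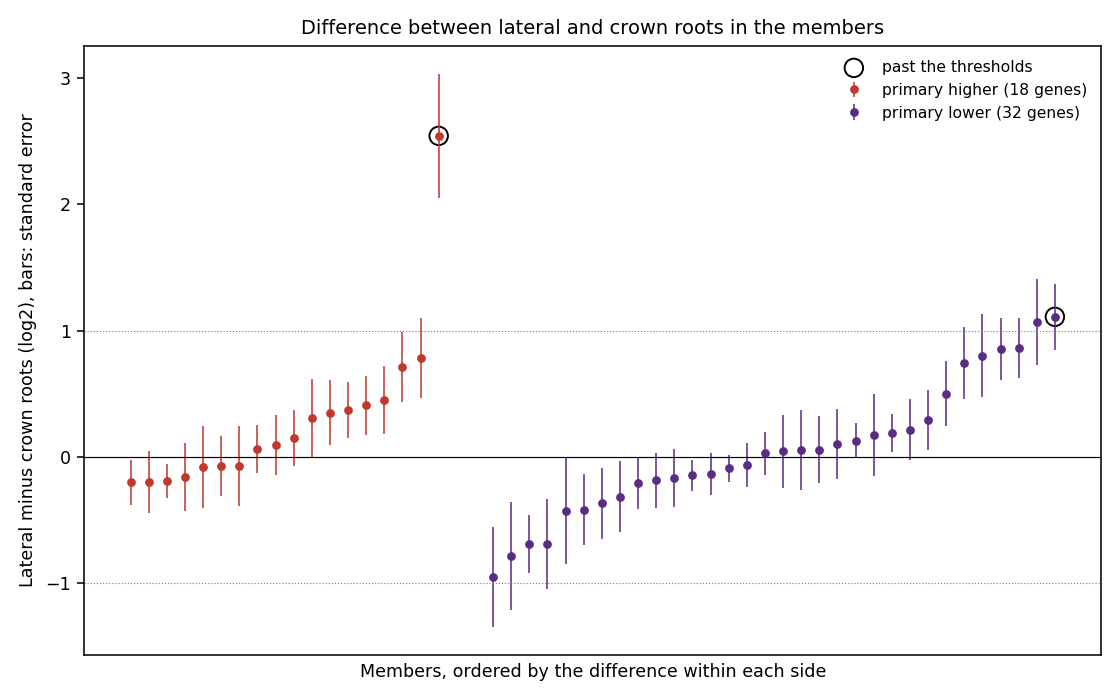
Log2 difference of lateral minus crown roots for the 18 genes higher in primary roots (red) and the 32 lower in primary roots (purple), ordered within each side, with bars of 1 standard error and dotted lines at -1 and 1. Circles mark the 2 genes past the thresholds, Pgl_GLEAN_10024026 at 2.54 and Pgl_GLEAN_10035560 at 1.11.

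Single libraries took uneven parts in these patterns. In the genes of the lower side, crown root replicate 1 was the highest of the 3 crown root libraries in 25 of 32 (78.1%), beside 45.9% of all genes that met the conditions, and the highest of all 9 libraries in 16. It was at least 1.5 times both other crown root libraries in 9 of the 32 genes (28.1%), beside 9.37% of those genes. Pgl_GLEAN_10024644 (291 against 149 and 134) and Pgl_GLEAN_10008593 (1838 against 505 and 1205), the second named after its values were seen, were among them. The median ratio of the primary to the crown root mean was 0.43 with it and 0.50 without it. Leaving a library out can only keep or widen the gap of a chosen gene, so that all 32 genes still met the rule says nothing of this library. In the genes of the higher side, crown root replicate 1 was the highest crown root library in 5 of 18 (27.8%) and the lowest of all 9 libraries in 7. The part of this library in the result was not tested.

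Among primary roots, replicate 3 was the lowest of the 3 libraries in 10 of 18 genes of the higher side (55.6%) and so set their gap, beside 34.1% of all genes that met the conditions. Replicate 1 was the highest in 16 of 32 genes of the lower side, beside 30.5% of those genes. The nearest library of the other root types was a lateral root library in 12 of 18 genes of the higher side and 19 of 32 of the lower side, and a crown root library in 6 and 13. Within root types, the median coefficient of variation on the higher side was 11.8% in primary, 14.8% in lateral and 25.7% in crown roots. On the lower side it was 15.3%, 14.8% and 24.0%, beside 12.3%, 13.2% and 17.5% over all genes that met the conditions. The rule acts on the most extreme library of each side, so these spreads are not independent of it.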

How the data were processed

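RNA-seq of 9 root libraries of pearl millet was deposited as 1 table of 19754 genes. Per the labels and the methods, the authors trimmed reads with cutadapt 3.1, mapped them with HISAT2 2.0.1 to the ASM217483v2 assembly and assembled transcripts with StringTie 1.3.4 (versions also in the submitters' processing notes). They required a count sum of 90 per gene and deposited a signal per gene, the count normalised by the authors with the DESeq2 method. Read counts came from the TOGGLE pipeline (version 3) per the methods, with no counting program named in them. Columns were assigned by the names in the sample descriptions, with 0 left over. In every library 100% of the values were whole multiples of 1 step (tolerance 0.1 of a step), and these multiples, not known to equal reads, were taken as recovered counts.

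Genes were chosen by the rule given above, and the members and lists were chosen with earlier results of these data known. All 9 libraries entered 1 limma fit (version 3.58.1, R 4.3.3) of log2(normalised count + 1). It used a mean-variance trend, and p-values were adjusted over all genes by Benjamini-Hochberg. They measure the spread between pools of plants. Fold changes on this scale understate those of low genes. On data simulated for lateral against crown roots (19754 genes, 200 changed 4-fold), the fit recovered 100% with 0 false calls. The simulation gave every gene and library the same dispersion, and only genes with a mean of at least 100 were changed. In the data the spread differed between genes, with a crown root coefficient of variation of 83.2% in Pgl_GLEAN_10024026. The simulation therefore does not show how the fit performs on genes with such a spread. Recovery of changes under 4-fold, such as the 1.11 log2 units of Pgl_GLEAN_10035560, was not tested. Named were, on each side, the 12 largest gap ratios, the 3 highest means, the 3 genes just inside and just outside the threshold, the genes past the thresholds between lateral and crown roots (at most 5 in each direction), and any candidate gene of the study. Alternatives were other gap ratios, minimum means, scalings, pseudocounts, thresholds, fits and each library left out. Voom and a gap ratio of 3 were added after the data were seen. Count models were not run, and voom was used in their place.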

Additional observations from a re-analysis of the deposited data

How the results depend on the processing

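The number of genes set apart in primary roots followed the gap required, with 319 higher and 352 lower at no gap, 2 and 14 at a ratio of 1.5, 0 and 7 at 2, and 0 and 1 at 3. A minimum mean of 500 left 6 higher and 16 lower genes, and equal totals gave 40 higher and 23 lower. Quantile normalisation (21 and 38) and a minimum mean of 50 (25 and 36) stayed within 1.5 times. With a library left out the counts can only grow, apart from the minimum mean, since fewer libraries must be apart. They ran from 20 to 82 higher and from 38 to 100 lower genes, and all 50 genes met the rule in each of these 9 settings, as the rule requires. Without primary root replicates 1, 2 and 3 there were 48, 48 and 82 higher and 81, 61 and 100 lower genes. Without crown root replicates 1, 2 and 3 there were 30, 40 and 30 higher and 39, 66 and 50 lower genes. Without lateral root replicates 1, 2 and 3 there were 41, 20 and 31 higher and 41, 38 and 40 lower genes, so that the sides were equal without lateral root replicate 1. Over both sides, lateral roots had 14.8, 20.2 and 10.5 times and crown roots 10.3, 10.7 and 7.85 times as many genes as primary roots without primary root replicates 1, 2 and 3, against 34.8 and 21.2 times with all libraries. These ratios were 16.7 and 12.5 without crown root replicate 2, 22.3 and 19.5 without crown root replicate 3, and 29.4 and 13.7 without lateral root replicate 1. They were 6.39 and 5.07 with libraries required only not to overlap.

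Between lateral and crown roots, 2613 genes passed over the whole table and 1950 to 3711 under the alternatives. Of the 50 genes, 2 passed as reported, 3 with equal totals and 0 without the mean-variance trend. With only lateral and crown roots in the fit 1 passed, and with a library left out 0 to 4 passed. The number was 0 without lateral root replicate 2 or 3, 4 without crown root replicate 1, and 1 without any 1 of the primary root replicates 1, 2 and 3 and crown root replicates 2 and 3. The cause was not tested. The replicate number as a block left 1 of the 50 genes called and 2413 of all genes. The labels do not tie same-numbered replicates to shared plants or batches, and the correlation of their deviations was between -0.199 and 0.276, over 0.1 in 1 of 9 pairs. Among named genes, the differences of primary from lateral and crown roots moved by under 1 SD in 1148 of 1156 values. Many of these values could not move. A minimum mean, the fit without the trend and the replicate block leave a difference as it is. So does leaving out a library of the root type not compared. No stability is therefore read from this count. Equal totals raised the share of calls higher in lateral than in crown roots to 74.1%, against 63.4% as reported, with a median of all genes at 0.19 on the log2 scale, and quantile normalisation lowered it to 55.5%. The edgeR and DESeq2 alternatives were not run.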
